A study of Mus musculus with 468 samples.

Results

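Adipose tissue libraries with high Fasn expression were compared with libraries with low Fasn expression. Fasn encodes fatty acid synthase, the enzyme that builds palmitate from malonyl-CoA. The series holds adipose polyA RNA libraries from Diversity Outbred mice, an outbred stock in which every animal carries its own mosaic of founder genomes. All mice received a high-fat, high-sugar diet, given in the labels as 45 percent fat, and no untreated or alternative diet group was labelled. The paper names the depot as the gonadal fat pad, while the labels give no sex, age, batch or fat depot. Libraries were therefore split by the count of Ddx3y, a Y-linked helicase gene, into libraries without Ddx3y counts (48.5% of the series) and with them (51.5%). Within each stratum the groups were chosen by Fasn itself: the highest and the lowest 25% by CPM, the count divided by the library total and multiplied by 1e+06, which gave 56 low and 56 high libraries without Ddx3y counts and 60 low and 60 high libraries with Ddx3y counts. Together they are 49.6% of the series and form the high and low groups of every contrast. The remaining libraries (24.6% and 25.9% of the series) formed the middle groups and entered none of them.

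De novo lipogenesis converts glucose carbon into fat. Citrate leaves the mitochondrion through Slc25a1 and is cleaved by Acly to cytosolic acetyl-CoA, Acaca makes malonyl-CoA, Fasn makes palmitate, and Elovl6 and the stearoyl-CoA desaturases lengthen and desaturate it. NADPH comes from Me1, from cytosolic Idh1 and from the pentose phosphate pathway. The transcription factors SREBP-1c (Srebf1) and ChREBP (Mlxipl) drive these genes in fat and liver, downstream of insulin and of glucose uptake through GLUT4 (Slc2a4).

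Fasn itself was used to choose the groups, so its values are a description. Without Ddx3y counts it ran from 2081 to 7669 CPM in the low group (median 5230.5) and from 19795 to 40978 CPM in the high group (median 24711). With Ddx3y counts it ran from 1770.4 to 4055 CPM in the low group (median 3300.0) and from 6805 to 17547 CPM in the high group (median 8194). The medians of high and low differed 4.72-fold in the first stratum and 2.48-fold in the second, and 21 of the 60 high libraries with Ddx3y counts lay within the Fasn range of the low group without them. At the thresholds, the last library inside and the first outside the low group held 7669 and 7877 CPM without, and 4055 and 4087 CPM with Ddx3y counts. The corresponding pair for the high group was 19795 and 19790.3 CPM without, and 6805 and 6724 CPM with Ddx3y counts. High and low are thus terms within a stratum, and 70 libraries without Ddx3y counts exceeded every library with them.

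**Figure D1:**
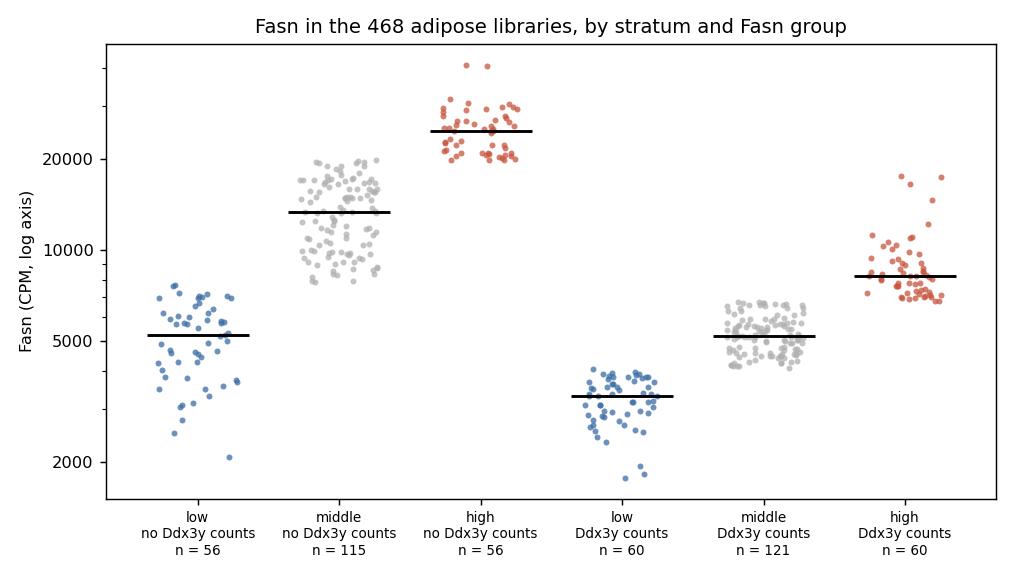
Fasn CPM (log axis) in every library of the series, 1 point per library, by stratum and group, with a black bar at each group's median. The high group with Ddx3y counts (6805 to 17547 CPM) overlaps the low and middle groups without them.

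The promoters of Fasn and of 3 genes of the same pathway are shown because their transcripts moved together below. Each is the 250 bases before the RefSeq start on GRCm38.p6, printed 5′ to 3′ on the gene's strand, and none overlaps a GENCODE M21 exon. Fasn lies at chr11:120824548-120824797 (minus strand), Acly at chr11:100528001-100528250 (minus strand), Slc25a1 at chr16:17928220-17928469 (minus strand) and Mlxipl, at its most upstream start, at chr5:135089640-135089889 (plus strand). Capitals mark the CCAAT box (CCAAT or ATTGG), the GC box (GGGCGG or CCGCCC) and the palindromic E-box CACGTG, searched on both strands.
Fasn: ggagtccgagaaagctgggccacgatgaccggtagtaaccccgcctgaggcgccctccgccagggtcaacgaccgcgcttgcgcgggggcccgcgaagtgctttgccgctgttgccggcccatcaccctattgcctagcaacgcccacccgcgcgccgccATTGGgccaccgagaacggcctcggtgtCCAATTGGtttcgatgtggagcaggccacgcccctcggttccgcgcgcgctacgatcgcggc
Acly: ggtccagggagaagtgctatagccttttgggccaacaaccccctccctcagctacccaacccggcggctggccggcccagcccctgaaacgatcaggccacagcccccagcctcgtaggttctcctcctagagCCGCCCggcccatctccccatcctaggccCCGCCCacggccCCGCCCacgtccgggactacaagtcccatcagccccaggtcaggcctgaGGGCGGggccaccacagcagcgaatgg
Slc25a1: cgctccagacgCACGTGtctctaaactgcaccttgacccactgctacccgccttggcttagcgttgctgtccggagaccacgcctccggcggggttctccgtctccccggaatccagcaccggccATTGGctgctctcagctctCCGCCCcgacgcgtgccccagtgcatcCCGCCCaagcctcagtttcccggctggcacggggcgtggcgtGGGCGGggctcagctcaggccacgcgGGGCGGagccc
Mlxipl: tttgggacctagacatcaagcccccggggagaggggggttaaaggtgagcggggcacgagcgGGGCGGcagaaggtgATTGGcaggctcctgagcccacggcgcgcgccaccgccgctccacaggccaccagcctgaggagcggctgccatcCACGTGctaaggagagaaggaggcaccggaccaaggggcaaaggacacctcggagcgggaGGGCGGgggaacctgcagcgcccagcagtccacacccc
The Fasn window held 3 CCAAT matches, of which 2 overlap in inverted order, and no GC box or E-box match. Acly held 4 GC boxes and none of the other motifs, while Slc25a1 and Mlxipl held all 3 motifs. Over all 32851 promoters of this length, 33.8% held a CCAAT box, 32.7% a GC box and 6.02% the E-box, and over the 16099 promoters of genes tested here the shares were 34.5%, 52.97% and 7.76%. Among the 59 promoters matched to 49 of 81 genes that rose at least 1.5-fold in both strata, shares were 44.1%, 40.7% and 8.47%. Among promoters of genes that fell at least 1.5-fold in both strata, the shares were 29.4%, 34.9% and 6.59%. GC boxes were thus less frequent than among tested genes in both sets, and not only where genes rose with Fasn. These matches describe letters in the windows and were not tested.

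Adipocyte transcripts were abundant in every group, so the tissue label held. Adipoq (adiponectin) ranged from 497.6 to 3795 CPM over the 4 groups. Total counts per library, in units of 1e+06, ran from 35.3 to 137.8 with group medians between 80.5 and 82.2, so depth did not separate high from low. Mouse numbers were less even. Of 5 blocks of these numbers, the first held 18 high and 8 low libraries with Ddx3y counts, and the last 8 high and 14 low. Without Ddx3y counts the first held 11 high and 14 low, and the last 14 high and 5 low. With blocks as a factor, 12197 genes were called without Ddx3y counts against 12371, and 4875 with them against 5417. Genes at least 1.5-fold lower with Ddx3y counts then numbered 0.74 times those without this factor. Values below are CPM scaled by TMM factors, which correct for the composition of each library. Median factors were 0.860 in the high and 1.04 in the low group without Ddx3y counts, and 1.01 and 1.09 with them, and fold changes without these factors are given where they matter. In 4 libraries, 1 in each low group and 2 in the middle group without Ddx3y counts, ribosomal-like RNA over 10% of counts (2 libraries) or Xist, the X-inactivation RNA, at odds with Ddx3y (2 libraries) raised doubt, and without them 12332 and 5394 genes were called in the 2 strata against 12371 and 5417 with them.

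Across the transcriptome, high and low Fasn libraries differed widely. Without Ddx3y counts, 5487 of 18370 genes tested were higher (29.9%) and 6884 lower (37.5%) in the high group at an edgeR adjusted p under 0.05 (67.3% in either direction), and 1466 (7.98%) and 2619 (14.3%) of them differed at least 1.5-fold. With Ddx3y counts, 2358 of 18378 genes were higher (12.8%) and 3059 lower (16.6%; 29.5% in either direction), and 0.675% of genes were at least 1.5-fold higher and 3.31% at least 1.5-fold lower. The strata share no library. Of the genes called higher without Ddx3y counts, 34.6% were also called higher with them, and these 1899 genes (10.3% of all tested) were 80.6% of the genes called higher with Ddx3y counts. The 2295 genes called lower in both (12.5% of all tested) were 33.3% and 75.05% of the respective lists. Another 0.958% of genes were higher without and lower with Ddx3y counts, and 0.702% showed the reverse. When libraries were scaled by their totals alone, the median log2 fold change of all genes moved from -0.04 to -0.34 without Ddx3y counts and from -0.03 to -0.12 with them, and the split of calls became 1985 higher and 12770 lower, and 1056 higher and 6428 lower.

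The genes of de novo fatty acid synthesis rose with Fasn in both strata. Besides Fasn the list held 18 genes. All 18 were higher in the high group without Ddx3y counts, with a median log2 fold change of 1.21 against -0.04 over all genes, and 17 of 18 with Ddx3y counts, with a median of 0.75 against -0.03. Under scaling by totals 14 and 15 were called higher and none lower. The one gene that missed the threshold, with Ddx3y counts, was Mid1ip1, an activator of acetyl-CoA carboxylase, at a log2 fold change of 0.12 ± 0.08 (SE) and an adjusted p of 0.227.

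Acly, ATP-citrate lyase (chr11:100476353-100528000, minus strand), cleaves citrate in the cytosol. Without Ddx3y counts it ran from 210.8 to 1097 CPM in the low group (median 534.2) and from 1461 to 8709.9 CPM in the high group (median 3760.1), with no overlap. With Ddx3y counts it ran from 189.3 to 693.7 CPM (median 334.9) and from 442.5 to 2411 CPM (median 783), and 40 of 60 high libraries lay above every low library. The log2 fold changes were 2.89 ± 0.11 (adjusted p = 1.5e-44) and 1.28 ± 0.09 (adjusted p = 5.23e-24), that is 7.40-fold and 2.43-fold. Slc25a1, the citrate carrier, rose 2.63-fold and 1.78-fold, and Acss2, which makes acetyl-CoA from acetate, rose 3.34-fold and 2.45-fold. Acss2 had the largest log2 fold change of the list with Ddx3y counts, 1.29 ± 0.10 (adjusted p = 2.37e-19).

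Acaca (chr11:84129672-84401651, plus strand), the cytosolic acetyl-CoA carboxylase, rose to a similar extent. Without Ddx3y counts it was at 259.4 to 1720.1 CPM in the low group (median 759) and 3594 to 11026 CPM in the high group (median 5251), again with no overlap. With Ddx3y counts its medians were 470.99 and 1057 CPM, and 28 of 60 high libraries exceeded all low libraries. The log2 fold changes were 2.62 ± 0.10 (adjusted p = 1.5e-44) and 1.28 ± 0.11 (adjusted p = 2.59e-18). Acacb, the carboxylase isoform at the mitochondrial outer membrane, rose 4.75-fold without and 1.52-fold with Ddx3y counts. Thrsp, a lipogenesis-associated nuclear and cytosolic protein, moved from a median of 234.3 to 1575 CPM without overlap (log2 fold change 2.76 ± 0.12, adjusted p = 3.96e-40), and from 246.7 to 391.9 CPM with Ddx3y counts (0.95 ± 0.14, adjusted p = 2.4e-08).

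Enzymes acting after palmitate were uneven. Elovl6, which elongates palmitate to stearate, had the largest fold change of the list without Ddx3y counts: medians of 96.3 and 953 CPM in low and high libraries, 8.32-fold (log2 3.06 ± 0.19, adjusted p = 9.29e-29). With Ddx3y counts the medians were 40.8 and 96.7 CPM, 2.18-fold (adjusted p = 4.91e-08), although only 3 of 60 high libraries lay above every low one. Scd1, the main stearoyl-CoA desaturase of fat, stood at medians of 74692 and 98079 CPM without and 68308 and 89467 CPM with Ddx3y counts. Its groups overlapped broadly and its change was small, 1.35-fold (adjusted p = 3.15e-07) and 1.31-fold (adjusted p = 0.00151). Scd2 went 1.31-fold and 1.85-fold, Elovl5 1.76-fold and 1.11-fold, and Pnpla3, a lipogenic lipid-droplet protein, 1.53-fold and 1.71-fold.

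**Figure D2:**
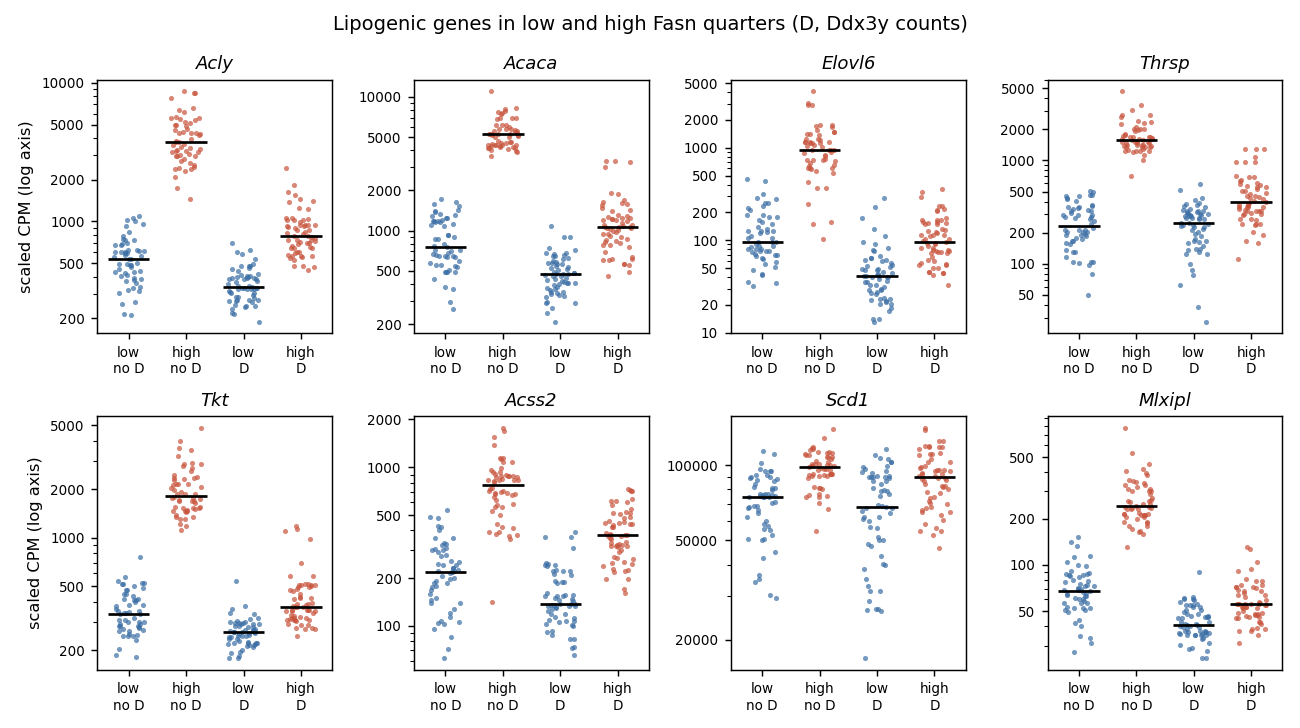
TMM-scaled CPM (log axis) of 8 genes in the low (blue) and high (red) Fasn groups of libraries without (no D) and with (D) Ddx3y counts, 1 point per library with a black bar at the median. Acly, Acaca, Thrsp and Tkt separate completely in libraries without Ddx3y counts, while Scd1 overlaps in both strata.

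Transcripts for NADPH supply rose unevenly, with a marked contrast inside the pentose phosphate pathway. Me1, malic enzyme, rose from a median of 601.4 to 2159 CPM and from 392.7 to 843 CPM, 3.67-fold and 2.10-fold, with 55 of 56 and 30 of 60 high libraries above all low ones. Tkt, the transketolase of the non-oxidative branch, rose from 337.4 to 1831 CPM without overlap (log2 fold change 2.50 ± 0.09, adjusted p = 1.69e-47) and from 259.9 to 370.7 CPM with Ddx3y counts (0.74 ± 0.08, adjusted p = 1.14e-12). G6pdx, which opens the oxidative branch, rose only 1.17-fold (adjusted p = 0.000893) and 1.198-fold (adjusted p = 0.00043), and the first of these was -0.07 on the log2 scale when libraries were scaled by totals. Pgd rose 1.97-fold and 1.40-fold, Taldo1 2.03-fold and 1.32-fold, and Idh1 1.197-fold and 1.11-fold. Idh1 without Ddx3y counts also changed sign when libraries were scaled by totals.

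Only 10 of 18370 genes (0.0544%) had every high library above every low library without Ddx3y counts, and none did with them. Besides Acly, Acaca, Thrsp, Tkt and Taldo1, these were Pdhb, Slc2a5, Gbe1, Dhrs7 and Vdac1, singled out after their values were seen. Pdhb is a subunit of pyruvate dehydrogenase, which supplies mitochondrial acetyl-CoA; Slc2a5 is the fructose transporter GLUT5 and Gbe1 the glycogen branching enzyme. Slc2a5 was low in absolute terms, with a maximum of 7.07 CPM in the low and a minimum of 9.42 CPM in the high group, and had a log2 fold change of 4.48. No gene had every high library below every low library in either stratum.

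Among 17 lipogenic transcription factors and their regulators, 12 were higher and 1 lower without, and 11 higher and 2 lower with Ddx3y counts. Mlxipl (chr5:135089890-135138382, plus strand) ran from 27.1 to 150.9 CPM in the low and 131.6 to 775 CPM in the high group without Ddx3y counts, with 55 of 56 high libraries above all low ones. Its log2 fold changes were 1.92 ± 0.10 (adjusted p = 2.84e-35) and 0.46 ± 0.07 (adjusted p = 3.69e-07). Srebf1 rose less, 1.62-fold from a median of 222.5 to 355.1 CPM (adjusted p = 7.91e-16) and 1.27-fold from 211.2 to 271.7 CPM (adjusted p = 9.74e-06). These counts pool the transcripts of a gene, so SREBP-1a and SREBP-1c, or ChREBP isoforms, were not separated. Ppargc1b, a coactivator of both factors, rose 4.79-fold and 1.44-fold. Insig1, which retains SREBPs in the endoplasmic reticulum, rose 1.54-fold and 1.55-fold. Pparg and Cebpa, regulators of adipocyte identity, rose 1.40-fold and 1.27-fold without, and 1.15-fold and 1.22-fold with Ddx3y counts. Usf1 was the gene called lower in both strata (log2 fold changes -0.11 and -0.09, adjusted p = 7.71e-05 and 0.0224), and Srebf2 was lower with Ddx3y counts (-0.15, adjusted p = 0.00809). Scaling by totals left 8 of 17 called higher and 7 called lower without, and 6 and 5 with Ddx3y counts, so the smaller changes of this group depend on the scaling. Over all genes that scaling called 1985 higher and 12770 lower without, and 1056 and 6428 with Ddx3y counts.

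Glycolysis and pyruvate dehydrogenase genes rose with Fasn. Of 23 genes of glycolysis and pyruvate dehydrogenase, 21 were higher and none lower without (median log2 fold change 1.31), and 19 higher and 1 lower with Ddx3y counts (median 0.31). Pdhb, with a median of 529.05 CPM in the high group, rose 3.85-fold without Ddx3y counts (log2 fold change 1.94 ± 0.09, adjusted p = 5.31e-39) and from 93.1 to 132.1 CPM with them (0.59 ± 0.06, adjusted p = 3.24e-13). Hk1, the constitutive hexokinase, was the member called lower with Ddx3y counts, at -0.16 (adjusted p = 0.000275), against 0.14 (adjusted p = 0.0652) without them. Slc2a4 rose 2.25-fold (adjusted p = 2.11e-29) and 1.37-fold (adjusted p = 5.38e-07). Slc2a1, the basal glucose transporter, was lower in both, at log2 fold changes of -0.27 (adjusted p = 0.000107) and -0.24 (adjusted p = 0.0151). Of all 18 genes of insulin signalling and glucose uptake, 8 were higher and 4 lower without, and 7 higher and 3 lower with Ddx3y counts, with medians of 0.05 and 0.13. Over all genes, 29.9% were higher and 37.5% lower without, and 12.8% and 16.6% with Ddx3y counts. Scaled by totals, 6 of these 18 were higher and 11 lower without, and 4 and 4 with Ddx3y counts. That scaling called 1985 of all 18370 genes higher and 12770 lower without Ddx3y counts. With them it called 1056 of 18378 higher and 6428 lower.

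Triglyceride synthesis and fatty acid oxidation genes both rose. Of 15 triglyceride synthesis genes, 12 were higher and 2 lower without (median 0.69), and 11 higher and none lower with Ddx3y counts (median 0.36). Gpd1, which makes glycerol-3-phosphate, rose 3.79-fold and 1.40-fold, while Lpin3, a phosphatidate phosphatase, fell without Ddx3y counts (-0.37, adjusted p = 9.82e-05) and stood at 0.06 with them (adjusted p = 0.602). Of 18 genes of mitochondrial fatty acid oxidation, 17 were higher in both strata, with medians of 1.25 and 0.35. The member that was lower was Cpt1a, the liver-type carnitine palmitoyltransferase, with medians of 134.9 and 76.03 CPM without Ddx3y counts (log2 fold change -0.81 ± 0.06, adjusted p = 7.02e-23) and 153.6 and 151.99 CPM with them (-0.06 ± 0.06, adjusted p = 0.516). The muscle and brown fat isoform Cpt1b went the other way, 4.80-fold (adjusted p = 1.23e-12) and 1.45-fold (adjusted p = 0.00216).

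All 17 citric acid cycle genes were higher without (median 1.26), and 16 with Ddx3y counts (median 0.36). Of 45 oxidative phosphorylation subunits, 44 were higher and none lower without (median 1.07), and 43 higher and 1 lower with Ddx3y counts (median 0.28). Atp5g1, an ATP synthase subunit, was the member called lower with Ddx3y counts (-0.14, adjusted p = 0.047) and stood at -0.04 without them (adjusted p = 0.641). Uqcrc2, a complex III subunit, had the largest mean change of these subunits, at log2 fold changes of 1.40 and 0.42. All 20 genes of branched-chain amino acid breakdown that were measured were higher without (median 0.64) and 18 with Ddx3y counts (median 0.31). With Adgre1, a macrophage marker, as a covariate, the latter count was 7 of 20. Of 22 cholesterol synthesis genes, 14 were higher and 1 lower without (median 0.67), and 17 higher and none lower with Ddx3y counts (median 0.40). Acat2, the cytosolic acetoacetyl-CoA thiolase, rose 1.27 and 0.76 on the log2 scale.

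Thermogenic genes had the largest list median without Ddx3y counts. All 15 were higher (median log2 fold change 2.16), against 8 of 15 with Ddx3y counts (median 0.50). Ucp1, the uncoupling protein of brown and beige adipocytes, ran from 0.216 to 1119 CPM in the low group (median 28.8) and from 11.1 to 4585 CPM in the high group (median 826) without Ddx3y counts. With Ddx3y counts its range was 0.106 to 24.8 CPM (median 2.18) and 0.0568 to 85.7 CPM (median 4.50). The ranges overlapped widely in both, and the log2 fold changes were 2.92 ± 0.41 (adjusted p = 4.4e-10) and 1.03 ± 0.35 (adjusted p = 0.0178). Cidea, a lipid-droplet protein, rose 7.20-fold and 1.82-fold, Dio2, which activates thyroid hormone, 5.63-fold and 2.10-fold, and Cox7a1, a subunit of cytochrome oxidase in heart, muscle and brown fat, 6.11-fold and 1.56-fold. Gpd2, the mitochondrial partner of Gpd1, rose 6.47-fold and 1.54-fold. Tmem79, a membrane protein, had the largest mean change of all genes called in both strata with a mean of at least 10 CPM, 10.9-fold and 1.98-fold. Skeletal muscle shares some of these genes, and its markers are given below. In bulk tissue, a change in the number of cells of a type and a change in the RNA of each cell cannot be told apart.

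**Figure D3:**
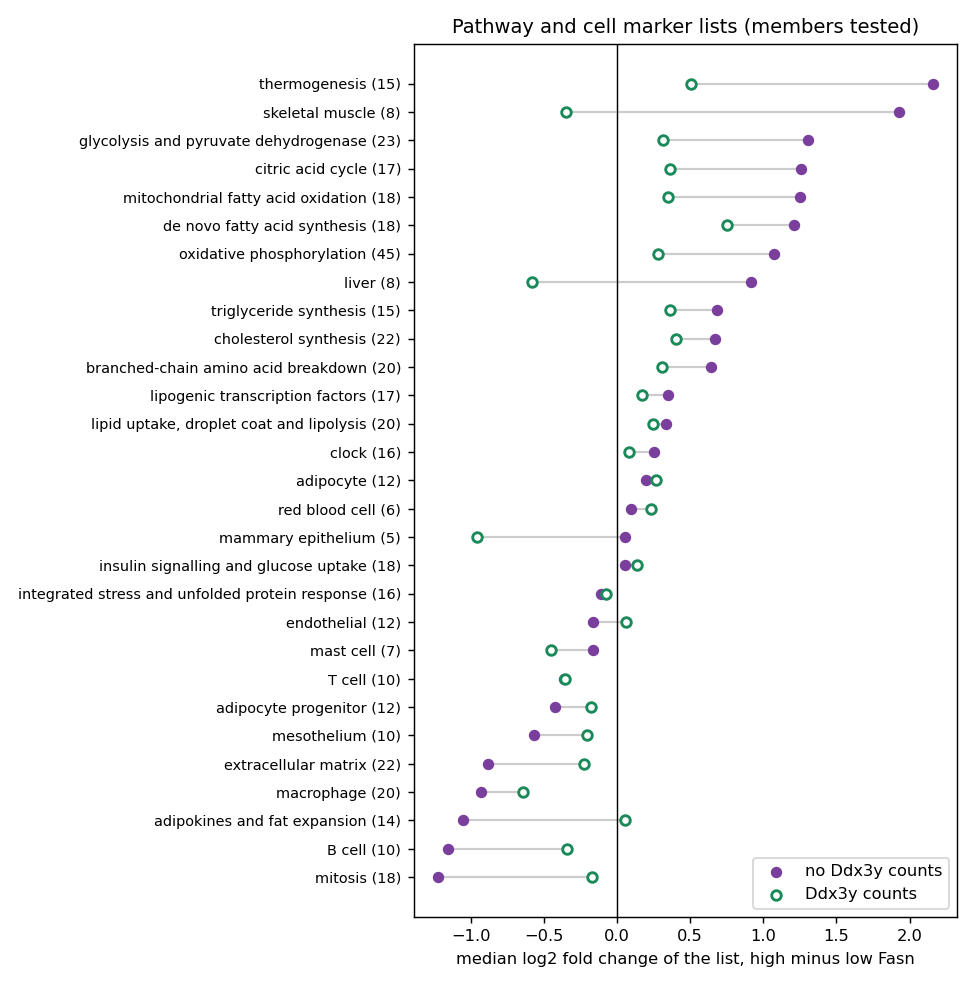
Median log2 fold change (high minus low Fasn) of each gene list with at least 5 tested members, without (filled) and with (open) Ddx3y counts; numbers in parentheses are members tested. Lipid, glucose and mitochondrial lists lie to the right, with de novo fatty acid synthesis at 1.21 and 0.75, and macrophage, matrix and mitosis lists lie to the left.

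Macrophage markers fell with rising Fasn in both strata. All 20 were lower without (median log2 fold change -0.93) and 19 of 20 with Ddx3y counts (median -0.64). Their summed level was 940.2 to 4648 CPM in low and 506.7 to 2065 CPM in high libraries without Ddx3y counts (medians 1744 and 1011), and 414.1 to 11221 and 876 to 5436 CPM with them (medians 2077 and 1556). Itgax, the integrin CD11c, was the member that fell most without Ddx3y counts. It had medians of 11.4 and 1.63 CPM without (log2 fold change -3.60 ± 0.29, adjusted p = 5.61e-21) and 37.4 and 14.02 CPM with Ddx3y counts (-1.40 ± 0.33, adjusted p = 0.000485). Cd163, a scavenger receptor of resident macrophages, moved least, at -0.30 (adjusted p = 0.00361) and -0.04 (adjusted p = 0.758). The 10 lowest mean changes among genes called in both strata included the macrophage elastase Mmp12 (-4.09 and -1.20), the lysosomal glycoprotein Gpnmb (-2.89 and -1.41), the osteopontin gene Spp1 (-3.01 and -1.08), the proton pump subunit Atp6v0d2 (-3.59 and -1.18), Adam8, Cd52, Cd84 and the calcium channel gene Cacna1e. With Adgre1 as a covariate, 12 macrophage markers were lower without and 1 with Ddx3y counts, while 17 of 18 de novo synthesis genes were higher in each stratum. Adgre1 is itself 1 of the 20 markers, so its own outcome in these fits was set in advance.

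Several other stromal and immune lists were lower throughout without Ddx3y counts. All 22 extracellular matrix genes, 12 adipocyte progenitor markers, 10 mesothelial markers, 10 B cell markers and 18 mitosis genes were lower there, with medians of -0.89, -0.43, -0.57, -1.16 and -1.22. With Ddx3y counts, 9 matrix, 5 progenitor, 2 mesothelial, 0 B cell and 0 mitosis genes were lower and none was higher; for the 2 lists at 0 the medians were -0.35 and -0.17. With Adgre1 as a covariate, 6 matrix and 9 mitosis genes were higher with Ddx3y counts. Ighm, the immunoglobulin M heavy chain, fell by 1.83 on the log2 scale without (adjusted p = 2.21e-11) and stood at -0.22 with Ddx3y counts (adjusted p = 0.502). Of 10 T cell markers 3 were lower without and 1 with Ddx3y counts, and of 7 mast cell markers 1 and 3, beside 37.5% and 16.6% of all genes. As slopes on Fasn over every library, 4 and 8 T cell and 1 and 6 mast cell markers were lower. Over all genes, 7139 of 18370 without and 4141 of 18378 with Ddx3y counts were lower as slopes. Endothelial markers were split, with 2 higher and 8 lower of 12 without, and 3 higher and none lower with Ddx3y counts.

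Adipokines did not move as a block. Of 14 genes of the adipokine and fat expansion list, 5 were higher and 9 lower without (median -1.05), and 3 higher and 1 lower with Ddx3y counts (median 0.05). Leptin (Lep), the satiety hormone whose level follows fat mass, ran from 134.5 to 4372 CPM in the low group (median 1398) and from 12.1 to 1393 CPM in the high group (median 272.7) without Ddx3y counts, a log2 fold change of -2.24 ± 0.24 (adjusted p = 1.06e-14). With Ddx3y counts its medians were 1936 and 1370.2 CPM, and the change of -0.19 ± 0.21 missed the threshold (adjusted p = 0.528). Sfrp5, a secreted WNT antagonist, had medians of 80.6 and 2.64 CPM without (-3.70 ± 0.29, adjusted p = 5.13e-22) and 180.9 and 128.2 CPM with Ddx3y counts (-0.48 ± 0.17, adjusted p = 0.0255). Cfd, adipsin, rose by 1.25 without (adjusted p = 3.55e-10) and stood at 0.41 with Ddx3y counts (adjusted p = 0.201).

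For clock and stress genes the shares over all genes were 29.9% higher and 37.5% lower without, and 12.8% and 16.6% with Ddx3y counts. Of 16 clock genes, 6 were higher and none lower without, and 1 higher and 2 lower with Ddx3y counts. Of 16 genes of the integrated stress and unfolded protein responses, 4 were higher and 7 lower without, and 1 higher and 3 lower with Ddx3y counts. Of 20 genes of lipid uptake, droplet coat and lipolysis, 12 were higher in each stratum, and 3 and 0 lower. Of 12 adipocyte markers, 7 and 8 were higher, and 3 and 0 lower.

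**Figure D4:**
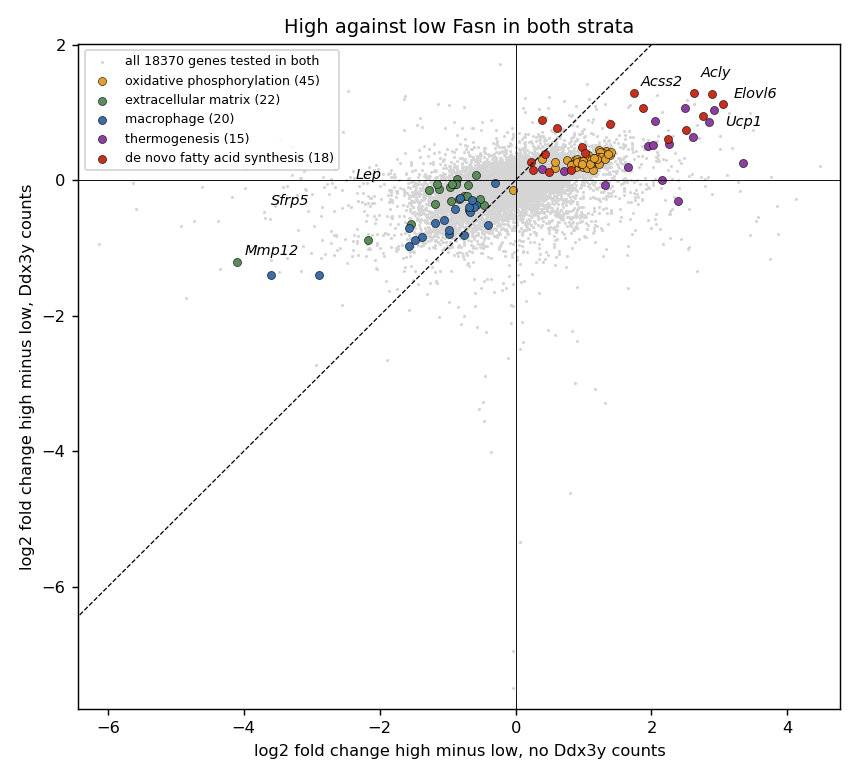
Log2 fold change (high minus low Fasn) of each of 18370 genes without Ddx3y counts (x axis) against with Ddx3y counts (y axis), with 5 lists in colour and a dashed line of equal change. De novo synthesis genes lie in the upper right and macrophage markers in the lower left; most oxidative phosphorylation genes lie far to the right of the line.

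Markers of other tissues were examined beside the thermogenic and mitochondrial lists. Of 8 skeletal muscle markers tested, 7 were higher and 1 lower without Ddx3y counts, whereas their summed median went from 38.02 to 13.7 CPM with a maximum of 312.7 in the low and 1521 CPM in the high group. Atp2a1, a muscle calcium pump also found in thermogenic fat, had medians of 0.327 and 0.447 CPM and a maximum of 304.2 CPM in the high group, and its log2 fold change of 3.30 ± 0.55 (adjusted p = 9.15e-08) rested on the upper tail. Capping each count at the gene's 99th percentile left 6 of 8 higher. With Ddx3y counts, 2 of 8 were lower. Of 5 mammary epithelial markers tested, 1 was higher and 1 lower without, and none higher and 2 lower with Ddx3y counts. The 6 measured had summed medians of 1.75 and 1.14 CPM in low and high libraries without, and 20.1 and 7.70 CPM with Ddx3y counts. Whether they mark mammary tissue was not tested. Elf5, an epithelial transcription factor, rose without (1.17, adjusted p = 6.16e-05) and fell with Ddx3y counts (-3.08, adjusted p = 1.1e-05). There 1 low library reached 217.4 CPM against a median of 0.182, and capping gave -1.17. Liver markers, 8 tested, had 1 and 0 higher, and red blood cell markers, 6 tested, 1 and 0. The one pancreas marker tested was lower without Ddx3y counts (-0.87). The part of these tissues in the results above was not tested.

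Slopes on Fasn were also fitted in the libraries between the groups, none of which entered the contrasts. These libraries come from the same ranking by Fasn, so agreement with the contrasts is no independent support. In the middle libraries without Ddx3y counts, 1561 genes rose (8.50%) and 1176 fell (6.40%) with each doubling of Fasn. Of these, 94.1% and 92.3% were called in the same direction between the high and low groups, and the converse shares were 26.8% and 15.8%. In the middle libraries with Ddx3y counts, 59 genes rose (0.321%) and 44 fell (0.239%). Of these, 51 and 8 had been called in the same direction. Capping each count at the gene's 99th percentile left 18 rising and 0 falling, and limma on log2 CPM 9 and 0. Of the 18 de novo synthesis genes, 12 rose without and 5 with Ddx3y counts in the middle libraries, and none fell. Acly rose 1.17 log2 units per doubling of Fasn without (adjusted p = 1.86e-18) and 0.76 with Ddx3y counts (adjusted p = 8.82e-05), and Acaca rose 1.08 (adjusted p = 1.27e-31) and 1.02 (adjusted p = 0.000589). Thermogenic genes rose in 8 of 15 without and 0 of 15 with Ddx3y counts, and oxidative phosphorylation genes in 44 and 1 of 45. Macrophage markers fell in 4 and 0 of 20, with 1 and 0 rising. The median slopes of these lists were 0.74 and 0.49, 0.38 and 0.27, and -0.15 and -0.27. Middle libraries spanned 7877 to 19790 CPM of Fasn without and only 4087 to 6724 CPM with Ddx3y counts. The low counts with Ddx3y counts therefore do not show that a relation is absent.

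The contrast differed between the strata for 8311 of 18378 genes (45.2%), and the difference was positive for 21.7% and negative for 23.5% of genes. The difference, with minus without Ddx3y counts, was negative for 13 and positive for 1 of 18 de novo synthesis genes, negative for 43 of 45 oxidative phosphorylation genes and 14 of 15 thermogenic genes, and positive for 20 of 22 matrix and all 18 mitosis genes. High and low Fasn lay farther apart without Ddx3y counts, so slopes per doubling of Fasn over every library were also compared. Of the de novo genes, 8 then had the lower slope and 2 the higher slope with Ddx3y counts, with list medians of 0.50 without and 0.53 with them. Acly differed (1.22 and 0.85, adjusted p of the difference 2.41e-11), as did Tkt (1.06 and 0.51, adjusted p = 1.49e-31). For Me1 (0.75 and 0.73, adjusted p = 0.773) and Slc25a1 (0.57 and 0.56, adjusted p of 1) no difference was detected. Oxidative phosphorylation had 41 of 45 and thermogenesis 13 of 15 lower slopes with Ddx3y counts, whereas macrophage markers had 1 of 20. Matrix genes had 11 of 22 and mitosis genes 18 of 18 higher slopes with Ddx3y counts. Over all 18378 genes, slopes differed for 5706, of which 2444 were higher and 3262 lower with Ddx3y counts. Pim1, a serine/threonine kinase gene, had medians of 12.5 and 40.7 CPM in low and high libraries without Ddx3y counts (log2 fold change 1.78 ± 0.13, adjusted p = 8.37e-25) and 10.2 and 9.12 CPM with them (-0.21 ± 0.07, adjusted p = 0.0151). Ppp1r3b, a glycogen-targeting phosphatase subunit, rose 6.59-fold without (adjusted p = 4.99e-26) and stood at a log2 fold change of 0.05 ± 0.10 with Ddx3y counts (adjusted p = 0.766).

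Levels in the strata were also set side by side at similar Fasn. This compares libraries without and with Ddx3y counts, not high with low Fasn. Between 5000 and 10000 CPM of Fasn lay 61 libraries without Ddx3y counts and a larger number with them, with median scaled Fasn of 7772 and 6156 CPM. Median Acss2 was 296.5 and 315.7 CPM and median Scd1 82188 and 78929 CPM in them, close in both strata. Ucp1 was 223.2 CPM without and 3.23 CPM with Ddx3y counts, Itgax 5.88 and 27.5 CPM, Sfrp5 50.3 and 161.4 CPM, and Lep 1115 and 2036 CPM. Acly stood at 844 and 598.3 CPM and Mlxipl at 85.9 and 48.03 CPM. These window values were not tested, since Fasn still differed inside the window.

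**Figure D5:**
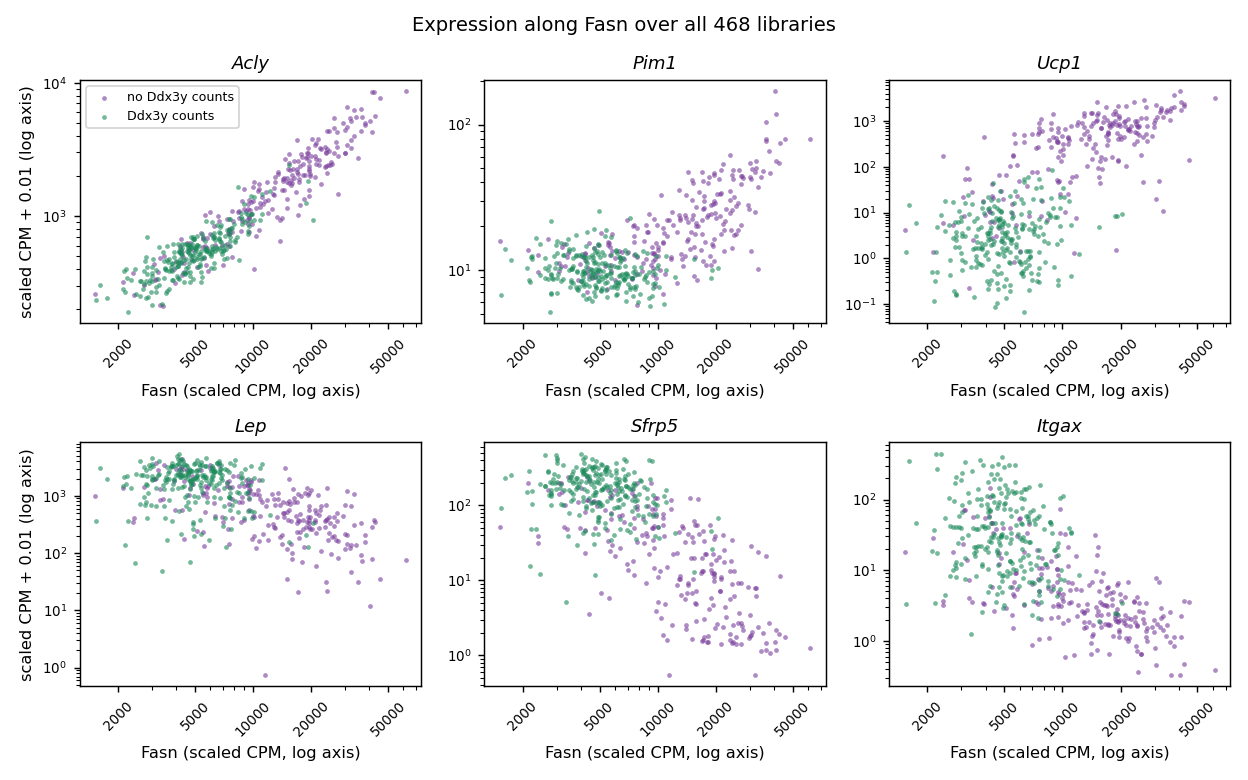
TMM-scaled CPM of 6 genes (offset by 0.01, log axes) against scaled Fasn CPM over every library, by stratum. Acly rises with Fasn in both strata, with slopes of 1.22 without and 0.85 with Ddx3y counts, Pim1 and Ucp1 reach their highest values in libraries without Ddx3y counts, and Lep, Sfrp5 and Itgax are lower at high Fasn without Ddx3y counts.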

How the data were processed

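PolyA RNA from 468 adipose samples, 1 library per mouse, was measured by RNA sequencing. Of these, 232 form the high and low groups; 227 libraries lack Ddx3y counts (115 in the middle group) and 241 have them (121 in the middle group). The authors aligned reads to a transcriptome of the founder strains and deposited expected counts per gene, estimated by EMASE within GBRS. They also deposited log2-scale, variance-stabilized values. The submitters' processing notes name DESeq2 and GRCm38. No source used here gives tool versions or the strand setting of counting, so overlapping genes and genes sharing reads with copies (Atp5g1 and hemoglobins among them) are uncertain.

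Expected counts were rounded. Genes with at least 10 counts in at least 50% of all 468 libraries were kept (18380 of 23180), and each fit left out genes without any count in it. Kept genes were scaled by TMM and tested with edgeR 4.0.16 quasi-likelihood in R 4.3.3, Benjamini-Hochberg adjusted at 0.05 over all genes tested. Contrasts were fitted per stratum, their difference as an interaction, and middle libraries by a slope on log2 Fasn. The SE of a log2 fold change is its size divided by the square root of F. P-values set a difference or slope against the spread between libraries, which were taken as independent. No kinship, generation or batch term was fitted. The paper removed RNA-seq batch effects and adjusted for sex, generation and wave, and for kinship in its eQTL analysis. Totals were 35.3 to 137.8 times 1e+06 counts, and precision for low genes is limited by counting error. Alternatives used DESeq2 1.42.0, limma 3.58.1, other scaling, filters and group sizes, covariates and capped counts. The code was tested on simulated counts.

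Named genes were all lipogenic enzymes and transcription factors measured, the 10 largest and 10 smallest mean changes among genes called in both strata with a mean of at least 10 CPM, the largest and smallest of each other list, and the 5 strongest differences between strata in each direction. The groups, 30 gene lists and rules were chosen with earlier results of these data known.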

Additional observations from a re-analysis of the deposited data

Results flagged for a closer look

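The high against low Fasn contrast differed between the strata, by an edgeR interaction test, for 8311 genes. Among the named genes tested, 79 differed (72.5%, beside 45.2% of all genes), 67 differed in slope per doubling of Fasn (61.5%), and 59 differed in both with the same sign (54.1%). Over all 18378 genes, 5706 differed in slope. The named genes include the 10 below, which were picked by this same test, so these shares are no independent evidence. The difference, with minus without Ddx3y counts on the log2 scale, was -1.77 for Tkt, -1.99 for Pim1, -1.20 for Gucd1, -2.69 for Ppp1r3b and -1.08 for Ahcyl1. It was 3.22 for Sfrp5, 1.95 for Ret, 0.83 for Igfbp4, 1.43 for Prelp and 2.52 for Crtac1. Sex is not in the labels, but the strata rest on a Y-linked gene, and Xist was at odds with Ddx3y in 2 libraries. A difference between the strata thus cannot be told apart from a difference between the sexes. Fasn itself spanned a wider range without Ddx3y counts. Depot and batch are not in the labels, and the paper names the gonadal fat pad as the depot. With mouse and library number as covariates, 7989 genes differed between the strata. What these numbers track is not labelled, so the part of batch in these differences was not tested.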

How the results depend on the processing

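In the contrast without Ddx3y counts, 12371 genes were called, and 7276 when genes averaging under 10 CPM were dropped, where fewer genes were tested. In the middle libraries with Ddx3y counts, 59 genes rose and 44 fell, against 9 calls by limma and 18 with capped counts, while DESeq2 gave 86 rising and 3 falling and no filter 62 and 92. Scaling by totals called 1985 higher and 12770 lower without, and 1056 and 6428 with Ddx3y counts. Without Ddx3y counts, genes at least 1.5-fold higher numbered 0.46, 0.49, 0.60 and 0.64 times the 1466 reported under totals, the 10 CPM filter, variance-stabilized values and Adgre1, and those lower 2.01, 0.33, 0.34 and 0.62 times the 2619 reported. With Ddx3y counts the number higher was 0.44 times that reported under the filter and on stabilized values and 2.58 times in the extreme 10%; the number lower was 1.53 times under totals, 0.23, 0.09 and 1.89 times under those 3, 0.39 by limma and 1.83 when ranked by TMM-scaled Fasn.

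Directions reversed under totals without Ddx3y counts for G6pdx (-0.072), Idh1 (-0.037), Scap (-0.26), Nr1h2 (-0.14), Nr1h3 (-0.16), Rxra (-0.23), Hk1 (-0.18) and Flt1 (-0.0072), and with them for Scap (-0.088). Without Ddx3y counts they reversed by limma for Epcam (-0.62) and Slc4a1 (-0.17), in the extreme 10% for Slc4a1 (-0.49), and with Adgre1 for Trac (0.97). With Ddx3y counts and Adgre1 they reversed for Mmp12 (0.093), Atp6v0d2 (0.0077), Adam8 (0.066), Cpt1a (0.13), Lum (0.24), Bub1 (0.48) and Nusap1 (0.33). Atp2a1 with Ddx3y counts went to 1.76 ranked by TMM-scaled Fasn, 1.46 in the extreme 33.3%, 0.66 as a slope over all libraries and, in the middle libraries, -0.10 with capped counts. The difference between strata for Acss2 became 0.15 as a difference of slopes, an alternative chosen after seeing the data. The cause was not tested. Of all values under alternatives, 5734 kept direction and call, 2.73% lost and 1.82% gained a call, and 25 reversed. No paired analysis was possible because the groups share no replicate pairing.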
